A study of Homo sapiens with 4 samples.

Results

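The adrenergic core transcription factors of neuroblastoma were followed in SK-N-SH cells in which the long non-coding RNA (lncRNA) AP1AR-DT was overexpressed. The 8 genes were PHOX2A, HAND1, HAND2, GATA2, GATA3, ISL1, TFAP2B and SOX11, taken by exact symbol from a table of read counts for 24014 genes. SK-N-SH is an established human neuroblastoma line, and its cultures are known to hold neuroblast-like (adrenergic) cells beside flat, substrate-adherent (mesenchymal) cells. RNA-seq was performed on wild type SK-N-SH cells given an empty lentiviral vector (control, 2 libraries) and on cells given a lentivirus carrying AP1AR-DT, also called AC109347.1 (AP1AR-DT_OE, 2 libraries). Both groups were thus given a lentiviral vector. The genotype and treatment entries of AP1AR-DT_OE 2 name AC109347.2 where its title names AC109347.1, and the title was followed. Whether the 2 libraries of a group came from separate cultures is not stated, so p-values measure only the spread between libraries, and with bulk RNA a change in the share of adrenergic cells and a change in RNA per cell cannot be told apart.

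Adrenergic identity in sympathetic neuroblasts and chromaffin cells is held by transcription factors that bind to each other's regulatory DNA and to their own. HAND1 and HAND2 are basic helix-loop-helix factors that bind E-boxes with an E protein partner. GATA2 and GATA3 are zinc finger factors that bind GATA sites. PHOX2A and ISL1 carry homeodomains, which read sites with a TAAT core, TFAP2B is an AP-2 factor, and SOX11 is a high mobility group box factor. Together they drive the enzymes and transporters of catecholamine synthesis, and the mesenchymal state is marked instead by factors such as PRRX1 and the AP-1 family.

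AP1AR-DT had 3 and 18 counts in control 1 and 2, against 680 in AP1AR-DT_OE 1 and 1065 in AP1AR-DT_OE 2, far above the controls in both AP1AR-DT_OE libraries (Log2FC = 6.63, SE 0.64, adjusted p = 3.64e-21, DESeq2). The libraries held between 21988065 and 26184599 counts, and a pair of reads was worth about 4 counts. The libraries numbered 1 and 2 by their titles stood apart by transcript GC content within each group.

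None of the 8 factors passed the test between AP1AR-DT_OE and control. With DESeq2, 0 of the 8 were called at an adjusted p under 0.05, where 0.137% of all 24014 genes were called (33 genes, 20 higher and 13 lower). At an unadjusted p under 0.05 the count was also 0 of 8, with 0.816% of all genes below it, and edgeR's quasi-likelihood test gave 0 as well. The median Log2FC of the 8 was -0.00, and that of 13298 genes averaging 50 or more normalized counts (counts divided by the DESeq2 size factor) was -0.02. Fitted Log2FC ranged from -0.16 for TFAP2B to 0.33 for HAND1, 4 of the 8 being above 0. The adjusted p was 1.00 for each (DESeq2). These values bound the change rather than show that there was none: the 95% interval ran from 0.55 to 1.73-fold for GATA3, the narrowest of the 8, and from 0.45 to 2.04-fold for ISL1, the widest on the log2 scale.

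**Figure D1:**
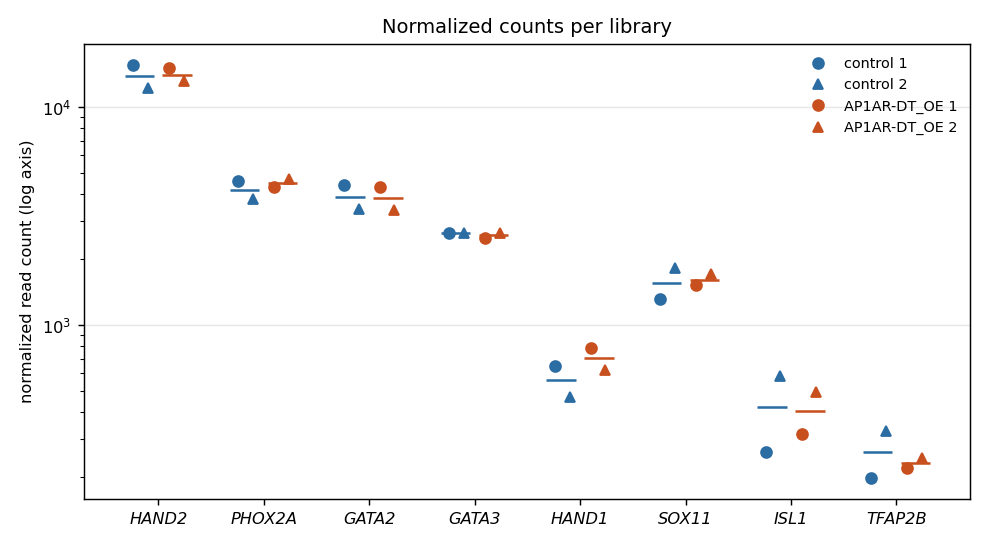
Normalized read count (log axis) of each core factor in each library, with bars at the mean of each group (n = 2). Blue is control, orange is AP1AR-DT_OE, circles are number 1 and triangles number 2. For 7 of the 8 genes the libraries of the groups overlap, and the exception is GATA3.

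HAND2, a helix-loop-helix factor needed for sympathetic neuron development, was the most abundant of the 8. It lies at chr4:173524969-173530229 on the minus strand (GRCh38, as are all gene positions given here) and had 13749 and 15830 counts in control 1 and 2, 13716 in AP1AR-DT_OE 1 and 13216 in AP1AR-DT_OE 2. Normalized, the control libraries were at 15659 and 12211 and the AP1AR-DT_OE libraries, at 15045 and 13117, fell between them. The means were 13935 ± 2438 and 14081 ± 1363 (SD, n = 2; Log2FC = 0.02, SE 0.43, 95% interval -0.83 to 0.86, DESeq2). After correction for GC content the sign turned, at -0.04. The exons of HAND2 share bases with those of HAND2-AS1 on the other strand, which had 910, 394, 906 and 570 counts in the same order. Strand use in the counting is not stated, so reads of the pair cannot be told apart there.

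HAND1, the paralogue of HAND2, lies at chr5:154474972-154478227 on the minus strand. It had 570 and 606 counts in control and 714 and 626 in AP1AR-DT_OE. Its normalized counts were 649 and 467 in control and 783 and 621 in AP1AR-DT_OE, so that AP1AR-DT_OE 2 lay below control 1 and the groups overlapped. Log2FC was 0.33 (SE 0.48, 95% interval -0.60 to 1.27), from 558 ± 129 to 702 ± 114 (SD, n = 2). HAND1 had the largest fitted value of the 8 with all libraries in the fit. With 1 library left out it ranged from 0.12 (without control 2) to 0.59 (without control 1). Without control 2, ISL1 (0.64), SOX11 (0.31) and TFAP2B (0.25) were higher than HAND1. Without AP1AR-DT_OE 1, ISL1 (0.21) and PHOX2A (0.16) were higher than HAND1 (0.15). HAND1 was above 0 in both numbers, at 0.27 within number 1 and 0.41 within number 2 (log2 ratio of normalized counts, 1 library a group and no test). The level of HAND2 per length was 14.8 and 16.0 times that of HAND1 in control and 11.8 and 12.9 times in AP1AR-DT_OE. The ratio did not overlap between the groups, and was looked at after the counts were known, so no test is given.

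The promoters of these factors are shown for the 3 genes whose 250 bases before the start hold the letters of a GATA site. Sequences are from RefSeq (GRCh38.p14), 5′ to 3′ on the strand of the gene, and capitals mark GATAA or TAAT read on either strand. The windows are chr4:173530230-173530479 on the minus strand for HAND2, chr5:154478228-154478477 on the minus strand for HAND1 and chr5:51383198-51383447 on the plus strand for ISL1.
HAND2: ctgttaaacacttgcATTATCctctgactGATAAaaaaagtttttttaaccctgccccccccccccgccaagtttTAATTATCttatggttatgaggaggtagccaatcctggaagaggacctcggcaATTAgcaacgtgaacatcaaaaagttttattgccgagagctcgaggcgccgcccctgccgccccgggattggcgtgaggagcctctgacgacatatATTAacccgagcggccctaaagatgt
HAND1: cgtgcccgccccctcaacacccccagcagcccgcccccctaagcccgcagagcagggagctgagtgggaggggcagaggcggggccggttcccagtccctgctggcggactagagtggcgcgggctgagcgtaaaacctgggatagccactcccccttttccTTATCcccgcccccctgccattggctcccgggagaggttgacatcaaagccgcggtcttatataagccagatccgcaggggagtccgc
ISL1: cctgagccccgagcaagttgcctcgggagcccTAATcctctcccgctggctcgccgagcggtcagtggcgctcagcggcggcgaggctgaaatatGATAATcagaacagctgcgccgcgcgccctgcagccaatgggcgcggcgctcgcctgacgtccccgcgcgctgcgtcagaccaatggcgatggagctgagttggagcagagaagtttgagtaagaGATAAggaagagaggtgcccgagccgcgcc

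The window of HAND2 holds GATAA 3 times, beginning 234, 221 and 172 bases before the start, and TAAT 5 times. One run, 175 bases before the start, joins TAATTA, the palindromic homeodomain site, to a GATAA on the other strand with which it shares letters, and TAATTA itself counts as TAAT on both strands. Of 35097 RefSeq promoters searched over the same length, 20.5% held GATAA at least once and 0.675% at least 3 times, 47.5% held TAAT and 6.16% at least 5 times, and 4.35% held TAATTA. ISL1 has 2 GATAA, of which the one 155 bases before the start overlaps a TAAT, and HAND1 has 1 GATAA together with TATATA 30 bases before the start. TATATA was in 3.73% of promoters. These shares are over all promoters searched, without matching for base composition. The windows shown had a GC content of 49.6% (HAND2), 67.2% (HAND1) and 65.2% (ISL1).

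A promoter was found for 7 of the 8 genes in the RefSeq set, and SOX11 had no entry. At the annotated start nearest to that of the count table, GATAA was in 3 of the 7 and TAAT in 3 (HAND2, ISL1 and TFAP2B). The nearest start was still 1488 bases away for PHOX2A, whose window held none of the motifs searched, 148 for TFAP2B and 45 for GATA3. The E-box CANNTG was in 2 of the 7 (HAND2 and ISL1; 61.8% of all promoters) and the AP-2 letters GCCNNNGGC in 3 (GATA2, GATA3 and HAND1; 19.8%). The SOX letters ACAAAG (13.7%) were in none of the 7 windows. All motifs were read on both strands, and a match describes letters, not a bound site.

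GATA2 and GATA3 are zinc finger factors of the same family. GATA2 (chr3:128479427-128493201, minus strand) had 3848 and 4395 counts in control and 3906 and 3407 in AP1AR-DT_OE. Its normalized counts followed the number of the library and not its group, at 4383 and 4284 in the number 1 libraries and 3390 and 3382 in the number 2 libraries. Log2FC was -0.02 (SE 0.44, 95% interval -0.88 to 0.84), and the log2 ratio was -0.03 within number 1 and -0.00 within number 2. Its exons share bases with GATA2-AS1 on the other strand, which had between 61 and 113 counts.

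GATA3 (chr10:8045378-8075198, plus strand) had 2326 and 3443 counts in control and 2297 and 2660 in AP1AR-DT_OE. It was the steadiest of the 8 after normalization, with 2649 and 2656 in control and 2520 and 2640 in AP1AR-DT_OE. Both AP1AR-DT_OE libraries thus lay below both controls, by a small margin (2653 ± 4.76 against 2580 ± 85.3, SD, n = 2; Log2FC = -0.04, SE 0.43). It was the 1 gene of 8 without overlap. Of all genes with a mean of at least 50, 9.45% had no overlap in either direction, 5.11% being higher and 4.35% lower in this way, so 1 of 8 is near the background.

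PHOX2A, a paired-type homeodomain factor that acts upstream of the noradrenergic enzymes, lies at chr11:72239077-72245664 on the minus strand. Its counts were 4006 and 4916 in control and 3937 and 4719 in AP1AR-DT_OE. Normalized counts of 4563 and 3792 in control and of 4318 and 4684 in AP1AR-DT_OE overlapped, and Log2FC was 0.11 (SE 0.43, 95% interval -0.73 to 0.95). The numbers differed in sign, at -0.08 within number 1 and 0.30 within number 2. The exons of PHOX2A share bases with INPPL1 on the other strand, a gene with more counts (4794 to 6292 per library), so part of the count of PHOX2A could be of either gene.

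ISL1, a LIM homeodomain factor of sympathetic and motor neurons, lies at chr5:51383448-51394730 on the plus strand. It had 229 and 755 counts in control and 287 and 495 in AP1AR-DT_OE. The number 2 library exceeded the number 1 library in both groups, and by more than the groups differed within a number, since the normalized counts were 261 and 582 in control and 315 and 491 in AP1AR-DT_OE. Log2FC was -0.07 (SE 0.56, 95% interval -1.16 to 1.03), with 0.27 within number 1 and -0.25 within number 2. The sign turned with a correction for GC content, to a value of 0.00.

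TFAP2B, an AP-2 factor of sympathetic progenitors and their differentiation, was the least abundant. It lies at chr6:50818723-50847619 on the plus strand and had 174 and 421 counts in control and 202 and 248 in AP1AR-DT_OE, the lowest of these being about 43.5 read pairs. Normalized counts were 198 and 325 in control, which enclosed the 222 and 246 of AP1AR-DT_OE. Log2FC was -0.16 (SE 0.54, 95% interval -1.22 to 0.90), and the log2 ratio was 0.16 within number 1 and -0.40 within number 2. SOX11, a factor of immature neurons, lies at chr2:5692384-5701385 on the plus strand. Its counts were 1155 and 2358 in control and 1386 and 1719 in AP1AR-DT_OE. Here too the controls, at 1315 and 1819 normalized, enclosed the 1520 and 1706 of AP1AR-DT_OE (Log2FC = 0.04, SE 0.45, 95% interval -0.84 to 0.92).

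**Figure D2:**
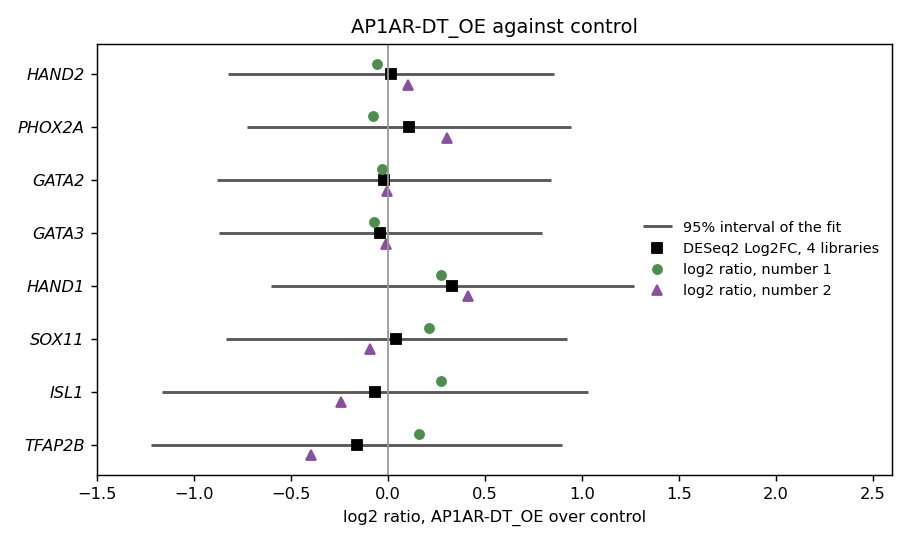
Log2 ratio of AP1AR-DT_OE over control for each core factor. Squares are the DESeq2 Log2FC over the 4 libraries with 95% intervals (lines), circles the log2 ratio of normalized counts within number 1 and triangles that within number 2. Every interval spans 0, and 3 of the 8 factors (HAND1, GATA2 and GATA3) had the same sign in both numbers.

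Within the groups, the factors differed between numbers, broadly along their transcripts' base composition. In control, the log2 ratio of number 2 over number 1 in normalized counts was 1.16 for ISL1, 0.71 for TFAP2B and 0.47 for SOX11, whose longest transcripts have a GC content of 45.4%, 48.4% and 48.6%. The same ratio was -0.47 for HAND1, -0.37 for GATA2 and -0.36 for HAND2, with GC contents of 57.3%, 60.4% and 58.5%. In control HAND1 was thus the lowest, and the ratio did not fall further at the higher GC contents of HAND2, GATA2 and PHOX2A. PHOX2A, with the highest GC content of the 8 (66.5%), was at -0.27 in control and 0.12 in AP1AR-DT_OE, and GATA3 (53.7%) was at 0.00 and 0.07. In AP1AR-DT_OE the range was smaller, from -0.34 for GATA2 to 0.64 for ISL1. Across the 8 genes Spearman's rho of GC content with this ratio was -0.79 in control and -0.71 in AP1AR-DT_OE, and across 13284 genes it was -0.77 and -0.65. These are correlations across genes of the same libraries, which are not independent, and no p is given. With GC content corrected, Log2FC of AP1AR-DT_OE over control was 0.29 for HAND1, -0.04 for HAND2, -0.08 for GATA2, -0.09 for GATA3, 0.03 for PHOX2A, 0.00 for ISL1, -0.17 for TFAP2B and 0.03 for SOX11. None of the 8 was called in that fit, and its 95% intervals ran from -0.53 to 0.46 for HAND2 and from -0.96 to 0.62 for TFAP2B.

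**Figure D3:**
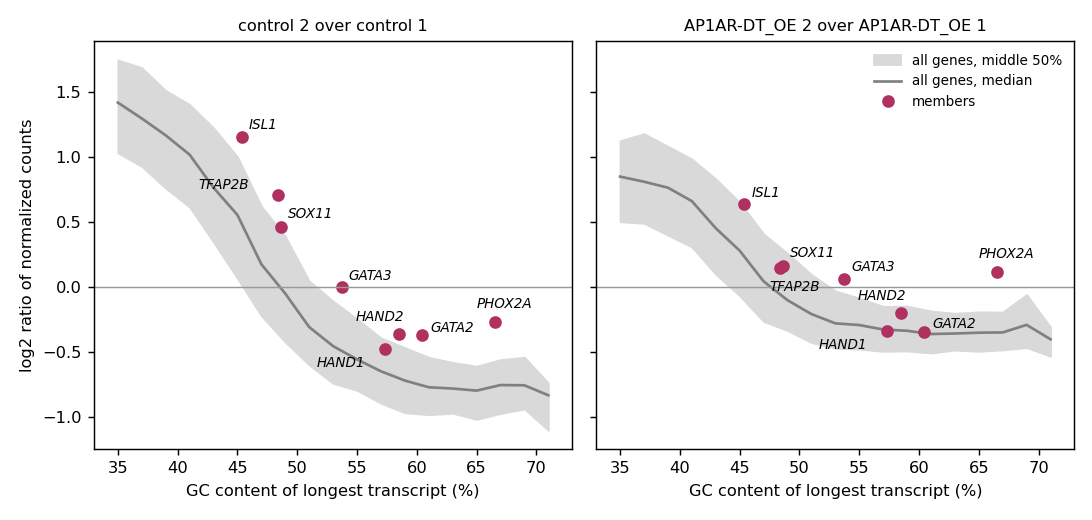
Log2 ratio of number 2 over number 1 normalized counts (vertical axis) against transcript GC content (horizontal axis, %), for control on the left and AP1AR-DT_OE on the right. Points are the 8 factors, and the line and band are the median and middle 50% of all genes in bins of GC content. ISL1 lies at 1.16 in control and 0.64 in AP1AR-DT_OE, above the GC-rich HAND1 and GATA2 at below -0.3 in both.

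Levels were compared between genes only per length, as counts per kilobase of the longest transcript, scaled to a sum of 1000000 over all genes of a library. In this unit HAND2 stood at 410, 380, 400 and 373 in control 1, control 2, AP1AR-DT_OE 1 and AP1AR-DT_OE 2. PHOX2A followed at 195, 193, 188 and 218. GATA2 had 84.0, 77.2, 83.3 and 70.4, and GATA3 had 62.6, 74.5, 60.4 and 67.7. GATA2 was above GATA3 in each of the 4 libraries, but their ranges overlapped. HAND1 came next at 27.8, 23.8, 34.02 and 28.9. SOX11 (10.6, 17.5, 12.5 and 15.0) and ISL1 (7.93, 21.0, 9.72 and 16.2) could not be ordered, with SOX11 higher in 2 of the 4 libraries. TFAP2B was last at 2.56, 4.99, 2.91 and 3.45. Every other neighbour in this order was separated in range over the 4 libraries, and the order was the same with merged exon length. The 8 factors summed to 801, 792, 790 and 792, of which HAND2 made up 51.2%, 48.0%, 50.6% and 47.1%.

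**Figure D4:**
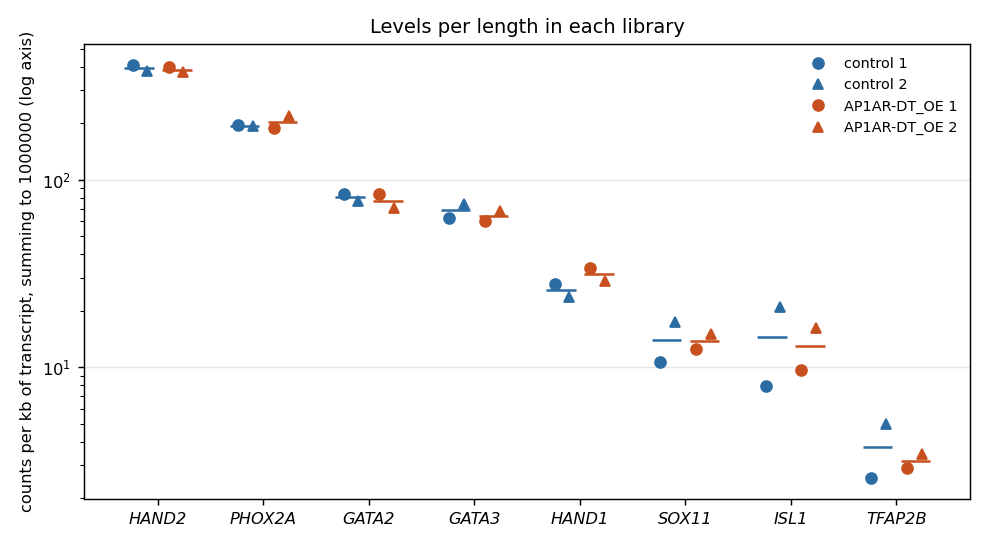
Level of each core factor as counts per kilobase of transcript, scaled to a sum of 1000000 (log axis) in each library, with bars at the group mean (n = 2). Blue is control, orange is AP1AR-DT_OE, circles are number 1 and triangles number 2. HAND2 is highest at 373 to 410 and TFAP2B lowest at 2.56 to 4.99 in all 4 libraries.

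The genes with the pattern most like a factor over the 4 libraries were found by the root mean square (RMS) difference of centred log2 normalized counts. For HAND2 they were CTA-221G9.10 and RPS6KB2 (RMS 0.0066 and 0.014), for HAND1 STC2 and MGMT (0.021 and 0.027), and for GATA2 the gene with the ID ENSG00000257674 and KDM5B (0.0053 and 0.0099). CCNE1 and ZKSCAN2 were nearest to GATA3, TMEM238 and RPL35P5 to PHOX2A, ANP32E and ELAC1 to ISL1, MT1E and XPR1 to TFAP2B, and EXOC5P1 and DDAH1 to SOX11. With only 4 libraries such likeness is common: between 1.61% of genes for HAND1 and 10.04% for HAND2 lay within 0.1. Among the factors themselves HAND2 and GATA2 were nearest, at 0.05, followed by PHOX2A with GATA3, TFAP2B with SOX11 and PHOX2A with HAND2, each at 0.12.

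The genes around the core factors were described in 9 fixed lists, of which 120 of 142 genes had a row and were tested, the others not being analysed here. No gene of any list was called. Of the 120, 2 had an unadjusted p under 0.05 with DESeq2: PRRX1, and GFI1, with 8 and 15 counts in control and 0 and 0 in AP1AR-DT_OE, at or near the level of 3 read pairs (12 counts) below which a 0 says little. Of the other adrenergic factors 0 of 16 were called, and the median Log2FC of the 11 with a mean of at least 50 was -0.08, beside -0.02 for all genes. TBX2, the list's highest in counts, had 13629 and 12995 counts in control and 12581 and 13073 in AP1AR-DT_OE (Log2FC = 0.07, SE 0.44). KLF13 was at -0.02, MEIS2 at -0.09, and SIX3, the highest of the 11, at 0.15. TLX2, a homeobox gene of the autonomic nervous system, had 2797 counts in control 1 against 326 in control 2 and 328 and 322 in AP1AR-DT_OE. Its Log2FC of -2.34 (SE 1.44, adjusted p = 1.00) rests on the single high control, as it was -3.15 within number 1 and 0.35 within number 2.

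Among paralogues of the core factors 0 of 7 were called, with SOX12 at a Log2FC of 0.00, SOX4 at -0.28 and GATA4 at -0.03. Of the cofactors 0 of 20 were called. CITED2, a co-activator of AP-2 factors, had 8710 and 10933 counts in control and 10103 and 9127 in AP1AR-DT_OE (Log2FC = 0.13, SE 0.43), the highest value of this list. KCTD15, an AP-2 inhibitor, had the lowest at -0.62 (SE 0.54), with 634 and 863 counts in control and 244 and 639 in AP1AR-DT_OE. That value rests mostly on AP1AR-DT_OE 1, as the log2 ratio was -1.43 within number 1 and -0.07 within number 2. ID1 and ID3, which titrate E proteins away from helix-loop-helix factors, were at 0.09 and 0.01. TCF3, an E protein partner of HAND factors, and LDB1, the LIM-binding partner of ISL1, were named for these roles after their values were seen, and stood at -0.01 and -0.13.

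Of the effector genes of the adrenergic state 0 of 23 were called, and the median Log2FC of the 17 with a mean of at least 50 was 0.00. TH, the rate-limiting enzyme of catecholamine synthesis, was not analysed here. DBH, which makes noradrenaline, had 1565 and 1293 counts in control and 1576 and 1539 in AP1AR-DT_OE (Log2FC = 0.23, SE 0.48). SLC6A2, the noradrenaline transporter, was the lowest at -0.59 (SE 0.53), and its 235 counts in AP1AR-DT_OE 1 stood below the 551 to 679 of the other libraries. Among the genes above 12 counts in every library, SLC18A1, a vesicular monoamine transporter, was the highest at 0.61 with 38 to 56 counts. PRPH, with 8 to 41 counts, was at 0.83. SCG2, a secretory granule protein, and CYB561, a granule electron carrier, were at -0.20 and 0.01. The adrenergic markers DDC, CHGA, CHGB, STMN2 and GAP43 had counts in every library.

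Of the mesenchymal markers 0 of 18 were called, and their summed normalized counts were 441162 and 322780 in control and 451736 and 363657 in AP1AR-DT_OE. VIM, an intermediate filament gene, was at 0.12 and COL1A1 at 0.14, while TAGLN was highest at 0.53 and ANXA1 lowest at -0.44. Of the mesenchymal factors 0 of 23 were called, with a median of -0.09 over the 21 with a mean of at least 50, and with FOSL1 at -0.09, JUNB at 0.01, TWIST1 at 0.04 and MAFF at 0.09.

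PRRX1, a paired-type homeobox factor of the mesenchymal core circuit, had 2432 and 14724 counts in control and 1131 and 2263 in AP1AR-DT_OE. Both AP1AR-DT_OE libraries were below both controls after normalization, at 1241 and 2246 against 2770 and 11358. Log2FC was -2.02 (SE 0.61, 95% interval -3.22 to -0.82), with an unadjusted p of 0.000987 and an adjusted p of 0.431 over all genes, so it was not called. It was lower within number 1 (-1.16) and within number 2 (-2.34). The size rests on control 2: without that library Log2FC was -0.66, and without control 1 it was -2.71 and called (adjusted p = 4.23e-06). With the GC correction it was called at -1.76 (adjusted p = 0.00114), while edgeR gave -2.04 with an adjusted p of 1.00. In the same libraries none of the 8 adrenergic factors had an unadjusted p under 0.05.

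**Figure D5:**
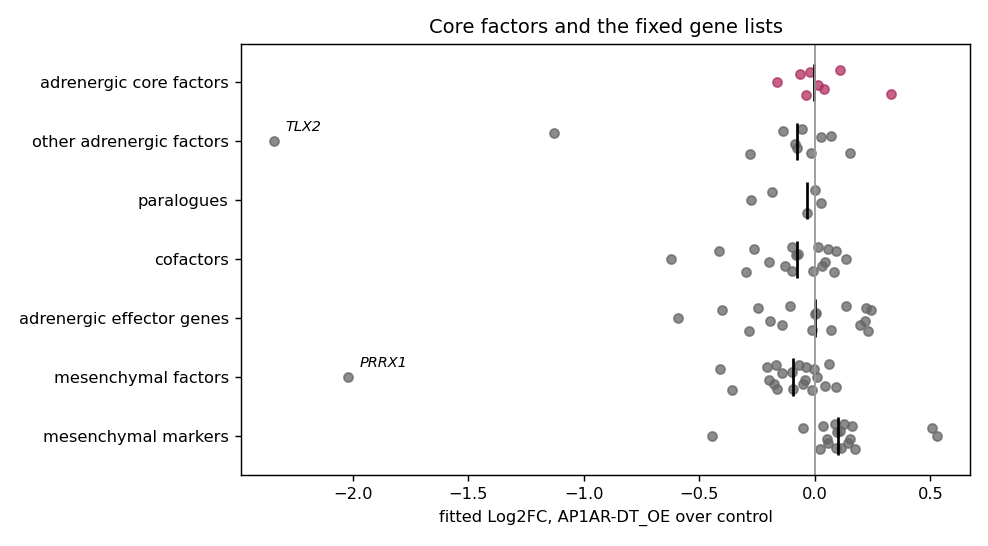
Fitted Log2FC of AP1AR-DT_OE over control (horizontal axis) for the core factors (red) and the genes of 6 further lists (grey) that averaged 50 or more normalized counts. Each point is a gene, vertical bars are list medians, and height within a line has no meaning. The core factors lie between -0.16 and 0.33, and PRRX1 at -2.02 and TLX2 at -2.34 stand apart.

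Markers of other cell types were then counted. Of the Schwann lineage genes 4 of 8 were tested and none called. The summed list lay between 109 and 165 normalized counts in the 4 libraries. The summed epithelial and blood markers, 5 of 9 tested, lay between 2277 and 3855, most of it from the keratin genes KRT18 and KRT8. Per length, KRT18 (mean 81.4 over the 4 libraries) was at a level like that of GATA2 (78.7) and KRT8 was at 20.5, while KRT19, EPCAM and CD68 were at 1.69, 0.282 and 3.83. Their part in the values of the core factors was not tested. Of the antisense and divergent neighbours of the core factors 0 of 5 were called, and HAND2-AS1, GATA3-AS1, GATA2-AS1 and ISL1-DT had a Log2FC of 0.22, 0.16, -0.01 and 0.06.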

How the data were processed

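Total RNA of 4 SK-N-SH libraries was sequenced. The paper's methods state paired-end reads aligned with HISAT2 to hg19 and counts taken from StringTie with its Python script, and the submitters' processing notes name TopHat2 2.0.4, SAMtools, HTSeq, Cuffdiff and edgeR 2.6.12. The annotation and the use of strand are not given in the sources used here. The deposited table holds whole-number read counts per gene with no normalization, and GRCh38 gene positions. Low values piled up at 4 (3287 entries, against 2136 at 3 and 1509 at 5), so a read pair is about 4 counts and low values are less precise than they look. The table also holds fold changes and p-values of the authors' own DESeq2 and edgeR tests, which were not used.

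Libraries were grouped by title. DESeq2 1.42.0 (R 4.3.3; Wald test, two-sided, median-of-ratios size factors, no covariate, default independent filtering) was run on all 24014 genes, with Benjamini-Hochberg adjustment and a threshold of 0.05. The procedure was tested on simulated counts. Alternatives were edgeR 4.0.16 with TMM factors, TMM factors in DESeq2, at least 10 counts in 2 libraries, the likelihood-ratio test, no independent filtering, a replicate block, a GC correction (lowess, span 0.3) with and without the block, counts divided by 4, each library left out, antisense neighbours summed, and merged exon length for the levels. GC content and lengths came from GENCODE v44 on GRCh37, matched by gene ID for 23954 genes. The 8 factors, the lists and the alternatives were chosen with earlier results of these data known. Genes named were the 8 factors, AP1AR-DT, and of each list the called genes, the 3 with the highest mean normalized counts, and the lowest and highest Log2FC among genes above 12 counts in every library. The cell type markers, GFI1, PRPH, TCF3 and LDB1 were named beside these. Some genes that this rule names are not reported here.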

Additional observations from a re-analysis of the deposited data

How the results depend on the processing

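None of the 8 factors was called under any of the alternatives run, and the smallest adjusted p of any of them was 0.999 (unadjusted 0.229). Of 112 recomputed fold changes of the factors 15 changed sign. Outside the left-out libraries these were ISL1, at 0.0080 with a replicate block, 0.0013 with the GC correction and 0.029 with both, and HAND2, at -0.036 with the GC correction and -0.028 with the block added. With one library left out, Log2FC ranged from -0.21 to 0.18 for GATA2, -0.14 to 0.20 for HAND2, 0.12 to 0.59 for HAND1, -0.09 to -0.01 for GATA3, -0.53 to 0.64 for ISL1, -0.0089 to 0.25 for PHOX2A, -0.17 to 0.31 for SOX11 and -0.48 to 0.25 for TFAP2B, and the median of the 8 from -0.011 to 0.067. The cause was not tested.

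The 33 genes called became 0 with edgeR (112 at an unadjusted p under 0.05), 55 with the GC correction, 60 with the GC correction and the block, 37 with the block alone, 15 with counts divided by 4, and 45 to 90 with one library left out: 90 without control 1, 75 without control 2 and 50 without AP1AR-DT_OE 2. The cause of these differences was not tested. Of the lists, where no gene was called, 1 gene was called with the block and with the GC correction (PRRX1 in each, at -1.75 and -1.76) and 2 with both (PRRX1 and TAGLN). Leaving out one library gave 0 to 1, which was PRRX1 without control 1 and TLX2 without control 2. Where a group is left with 1 library, that library is assumed to vary like the other group. The block rests on numbers from the titles, which no label ties to a shared batch. Deviations of same-numbered libraries from their group means correlated at 0.49 over 13298 genes, with only 2 numbers. The block changed no call of the 8 factors.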
